A study of Mus musculus with 2 samples.

Results

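The genes of leukaemia inhibitory factor (LIF) signalling and of the Myc family were followed in the ChIP-seq maps of Msl1 and Nsl1 in mouse embryonic stem cells (mESCs). They are a list of named genes: the receptor chains Lifr and Il6st, the kinases Jak1 and Jak2, the transcription factor Stat3, its inhibitor Socs3, and Myc, Mycn and Max. These are 9 of 22359 protein-coding genes of the GENCODE annotation of mm9. Both maps are from wild type E14 mESCs of the 129P2/OlaHsd background at passage 26, a male line that the methods describe as grown with LIF on feeder cells and then for a passage without feeders. The labels give no treatment, and the groups differ in the antibody (anti-Msl1, number 3208, or anti-Nsl1, number 3130), in how the libraries were made and in read length. There was 1 library per antibody, so no difference below has a replicate check and no test between conditions is possible. The intervals given are 95% intervals that cover counting error only.

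LIF keeps mESCs undifferentiated in culture. It binds a receptor made of Lifr and gp130, the product of Il6st, on which the tyrosine kinases Jak1 and Jak2 phosphorylate Stat3. Stat3 then enters the nucleus and activates genes that include Socs3, whose product blocks the receptor and the kinases in return. Myc and Mycn are transcription factors that act as dimers with Max and are needed for the rapid growth of mESCs. Msl1 is a subunit of the MSL complex and Nsl1 of the NSL complex, both of which carry the acetyltransferase Mof. MSL acetylates lysine 16 of histone H4.

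In all 23888517 aligned reads of 50 bases were deposited for Msl1 and 26084098 of 36 bases for Nsl1. After repeats of a position and strand were counted once, 19483142 nuclear Msl1 reads and 24883001 Nsl1 reads remained. Reads were moved to the middle of their fragments, which strand cross-correlation put at 213 bases for Msl1 and 133 bases for Nsl1. The main measure is the number of reads within 500 bases of a transcription start site (TSS), divided by the local level, the reads per kb from 5 to 50 kb away on both sides. In genes longer than 5 kb this level takes in part of the gene itself, so reads along the gene count in it. The mESC label could not be checked against marker genes, since these reads give no expression level.

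The upstream sequence of Il6st is shown because its annotated start and its RefSeq start, 10938 bases upstream, differ in sequence and in reads. These are the 250 bases before each start on the plus strand of mm9, at chr13:113264966-113265215 for the annotated start and at chr13:113254028-113254277 for the RefSeq start, with CpGs in capitals:
Il6st, before the annotated start: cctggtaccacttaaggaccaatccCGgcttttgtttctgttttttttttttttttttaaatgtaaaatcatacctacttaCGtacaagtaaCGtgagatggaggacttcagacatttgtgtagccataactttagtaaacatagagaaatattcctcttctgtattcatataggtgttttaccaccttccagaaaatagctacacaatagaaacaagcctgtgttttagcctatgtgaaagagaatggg
Il6st, before the RefSeq start: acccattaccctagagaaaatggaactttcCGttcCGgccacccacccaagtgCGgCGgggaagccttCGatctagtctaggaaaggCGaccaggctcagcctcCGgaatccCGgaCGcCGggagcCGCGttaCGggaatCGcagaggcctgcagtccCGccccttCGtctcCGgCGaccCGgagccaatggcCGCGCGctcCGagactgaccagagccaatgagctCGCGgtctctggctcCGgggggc
The stretch before the annotated start holds 3 CpGs and the one before the RefSeq start 26. The RefSeq start was placed on mm9 by an exact match of the RefSeq promoter sequence, whose own build is GRCm38.p6.

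The next sequences are the middle 150 bases of the 500 bases with the most Msl1 reads within 2 kb of the start. They are shown for a kinase, for Stat3 and for both Myc genes, because these middle bases lay in the first intron of each, while each window begins in the first exon. They are at chr4:100937463-100937612 on the minus strand for Jak1, chr11:100800330-100800479 on the minus strand for Stat3, chr15:61817521-61817670 on the plus strand for Myc and chr12:12948196-12948345 on the minus strand for Mycn, each written 5′ to 3′ of the gene with CpGs in capitals:
Jak1: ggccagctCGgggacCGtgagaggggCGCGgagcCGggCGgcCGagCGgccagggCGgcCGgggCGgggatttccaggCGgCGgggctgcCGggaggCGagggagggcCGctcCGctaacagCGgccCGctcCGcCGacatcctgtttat
Stat3: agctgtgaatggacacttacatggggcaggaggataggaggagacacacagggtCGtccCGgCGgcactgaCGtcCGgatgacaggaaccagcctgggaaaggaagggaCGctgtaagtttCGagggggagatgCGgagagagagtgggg
Myc: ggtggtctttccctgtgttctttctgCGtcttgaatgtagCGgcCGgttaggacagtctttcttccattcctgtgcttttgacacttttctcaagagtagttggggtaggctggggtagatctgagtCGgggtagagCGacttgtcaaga
Mycn: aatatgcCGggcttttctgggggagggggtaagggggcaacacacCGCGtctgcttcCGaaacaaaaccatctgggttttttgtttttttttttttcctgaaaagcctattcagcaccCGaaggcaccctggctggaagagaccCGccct
The stretch of Jak1 holds 21 CpGs, that of Stat3 8, that of Mycn 6 and that of Myc 5. The last 45 bases of the Mycn stretch are also in an exon of a noncoding Mycn transcript.

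The last set shows the copies of a Stat element (TTCNNNGAA) and of an E-box (CACGTG, the letters Myc and Max dimers bind) within 500 bases of a member's start. Both motifs read the same on either strand and do not overlap each other. The motif is in capitals, with flanking bases, on the minus strand of mm9, the strand of all these genes, and each position is that of the motif:
Socs3, Stat element at chr11:117830826-117830834: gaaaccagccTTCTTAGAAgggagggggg
Socs3, Stat element at chr11:117830553-117830561: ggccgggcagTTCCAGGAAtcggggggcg
Mycn, Stat element at chr12:12949092-12949100: tcttttcccaTTCCCAGAAcacacccagc
Stat3, E-box at chr11:100801235-100801240: gtggctgattccCACGTGgtaaggagctca
Stat3, E-box at chr11:100801205-100801210: caaactcgccccCACGTGgtgccaagggcc
Max, E-box at chr12:78063508-78063513: cccagctccctcCACGTGtcctgtcttccc
Max, E-box at chr12:78063233-78063238: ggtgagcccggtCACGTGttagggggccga
A Stat element was thus found at 2 of 9 members and at 24.1% of 21840 promoters of the same length. An E-box was also found at 2 of 9, against 17% of all. A match is a description of the sequence and not a measured binding site.

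More members reached 3 times the local level at the start with Msl1 than with Nsl1. At least 3 times the local level within 500 bases was reached in the Msl1 library by Jak1, Mycn, Stat3, Lifr and Max, 5 of 9 members, against 23.2% of the 21867 TSSs whose surroundings could be measured. Which members reached it depended on the window. Within 1000 bases, where the share of all TSSs was not counted, the count was also 5. In that window Stat3 (2.63) and Lifr (2.92) fell below it and Socs3 (3.39) and Myc (3.19) came above it. In the Nsl1 library only Max reached it, 1 of 9, against 24.1% of all TSSs. Max was also the only member at that level in both libraries, where 11.6% of all TSSs were. At least 2 times the local level was reached by 8 of 9 members with Msl1, against 45.6% of all TSSs, and by 3 of 9 with Nsl1, against 41.6%. The median ratio over the members was 3.08 for Msl1, beside 1.84 over all TSSs, and 1.79 for Nsl1, beside 1.71 over all TSSs. Many of the starts are rich in CpGs, and among the 7566 TSSs with at least 60 CpGs within 500 bases 48.7% reached 3 times the local level with Msl1 and 39.7% with Nsl1. Of the members all but the annotated start of Il6st are in that class. Within it the Msl1 count was 5 of 8 and the Nsl1 count 1 of 8. The cutoff of 60 is the number at Mycn, the lowest of these 8, while Lifr has 128 and Jak2 132. The part of the CpGs in these counts was not tested.

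**Figure D1:**
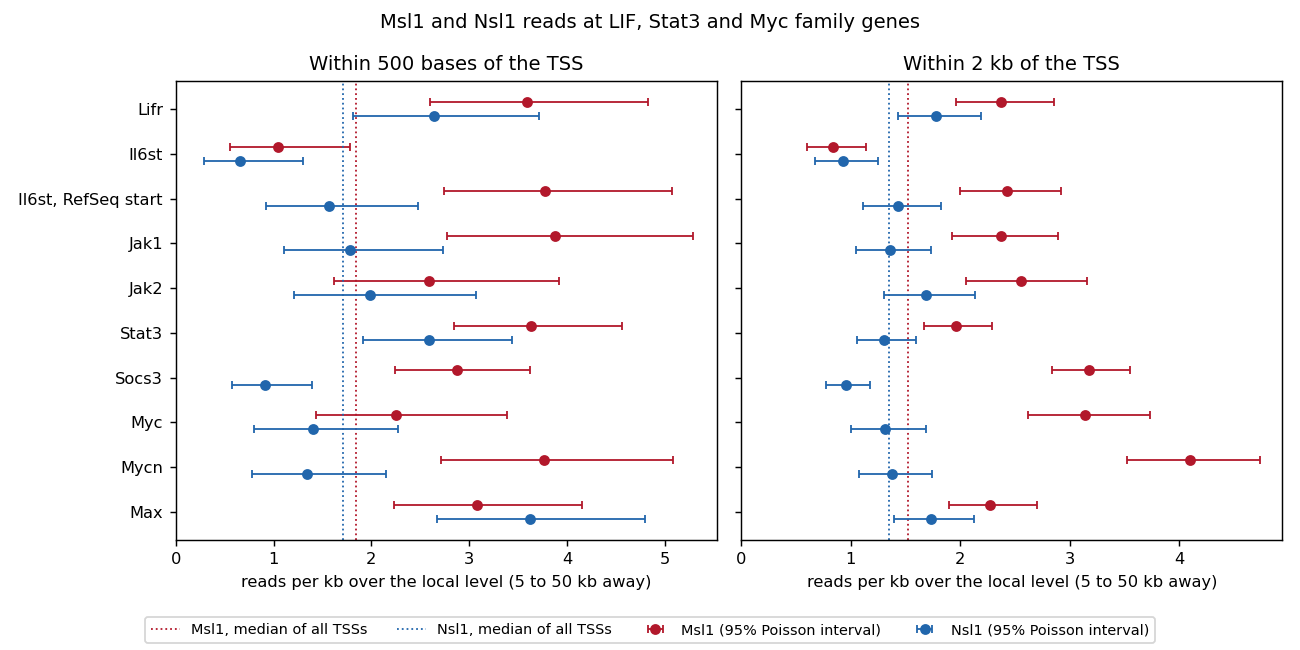
Reads per kb within 500 bases (left) and 2 kb (right) of the main TSS of each gene over the level 5 to 50 kb away, for Msl1 (red) and Nsl1 (blue). Bars are 95% Poisson intervals and dotted lines the medians of all TSSs. With this local level Msl1 lies above Nsl1 within 500 bases at every gene but Max. In that window the intervals of the libraries are apart only at Jak1, Socs3, Mycn and the RefSeq start of Il6st, and overlap elsewhere. The widest gaps within 2 kb are at Socs3, Myc and Mycn.

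The receptor chain Lifr, on chromosome 15 with its start at base 7079559, had 43 Msl1 reads and 33 Nsl1 reads within 500 bases. These are 3.59 times the local level for Msl1 (2.60 to 4.83) and 2.64 times for Nsl1 (1.82 to 3.71). The 2 intervals overlap, which is not a test of a difference. Per read of each library there were 1.66 times as many Msl1 as Nsl1 reads within 500 bases (1.03 to 2.70), beside a median of 1.02 over all TSSs. Within 2 kb there were 1.64 times as many (1.23 to 2.18), beside 1.16. A second annotated start, that of Lifr-202 13 bases downstream, had the same counts and ratios within 500 bases. The starts farther inside Lifr lay nearer to the local level. At the start of the shorter transcript Lifr-203, 24794 bases downstream, the ratios were 0.954 for Msl1 and 1.52 for Nsl1, and at the other RefSeq start, 10983 bases downstream, they were 1.31 and 1.27.

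Il6st, which encodes gp130, the chain shared by the receptors of the interleukin 6 family, showed no rise at its annotated start on chromosome 13 (base 113265216). There it had 13 Msl1 reads, 1.04 times the local level (0.555 to 1.78), and 8 Nsl1 reads, 0.662 times (0.286 to 1.31). At the RefSeq start (base 113254278), Msl1 had 44 reads, 3.78 times the local level (2.75 to 5.07), and Nsl1 18 reads, 1.57 times (0.928 to 2.47). The Msl1 reads of Il6st thus lay at the CpG-rich start printed above, which the annotation used here does not include in the gene. With that start, Il6st would be the sixth member at 3 times the local level in the Msl1 library.

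Jak1, the kinase that carries most of the signal from gp130, had the highest Msl1 ratio within 500 bases among the main starts of the members. Its start on chromosome 4 (base 100937887) had 40 Msl1 reads, 3.88 times the local level (2.77 to 5.28), and 21 Nsl1 reads, 1.79 times (1.11 to 2.73). The 2 intervals do not overlap. The Msl1 maximum lay after the start, with 48 reads in the 500 bases centred 350 bases downstream, 9.31 times the local level (6.86 to 12.3). The stretch printed above is the middle of this window and lies in the intron, while the window itself begins in the first exon. This and the other highest windows were each picked from many, so their ratios lean high. Their intervals do not allow for the picking, and the highest windows of all TSSs were not measured. The other annotated starts near the main one, from 1 to 59 bases downstream, had Msl1 ratios of 3.88 to 4.37 and Nsl1 ratios of 1.79 to 1.87. At the 3 internal starts of noncoding Jak1 transcripts, Msl1 lay between 0.709 and 1.27 times the local level and Nsl1 between 1.31 and 1.47 times.

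Jak2, on chromosome 19 (base 29326318), had 22 Msl1 reads, 2.59 times the local level (1.62 to 3.92), and 20 Nsl1 reads, 1.98 times (1.21 to 3.06). Its ratios did not differ beyond counting error, and neither reached 3. In the 250 bases before the start it had 0 Msl1 reads, as Mycn did and as 14.8% of all TSSs did, with 14 from 250 to 500 bases after the start. From 500 to 2000 bases away it had 39 Msl1 reads before the start and 26 after it. The highest Msl1 window of 1 kb within 50 kb was centred 1000 bases before the start, with 32 reads, 3.76 times the local level (2.58 to 5.31). The highest window of 500 bases within 2 kb was centred 550 bases after the start, with 21 reads, 4.94 times (3.06 to 7.55). Within 2 kb the Msl1 ratio was 2.56 (2.05 to 3.16) and the Nsl1 ratio 1.69 (1.31 to 2.14).

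Stat3, on chromosome 11 (base 100800854), had the most reads of any member within 500 bases for Msl1, 73, and as many as Max for Nsl1, 48. Because its surroundings were also rich in reads, with 20.1 Msl1 reads per kb, the most of any member but Socs3, the Msl1 ratio was 3.63 (2.84 to 4.56) and the Nsl1 ratio 2.59 (1.91 to 3.44). The 2 libraries placed these reads differently, with Msl1 farther downstream, as in the means over all TSSs. The Msl1 maximum was 73 reads in the 500 bases centred 450 bases after the start, 7.26 times the local level (5.69 to 9.12), and the Nsl1 maximum was 29 reads centred 50 bases before it, 3.13 times (2.10 to 4.50). At the other coding starts, 61, 136 and 160 bases downstream, the Msl1 ratios were 3.83, 3.89 and 4.05 and the Nsl1 ratios 2.59, 2.53 and 2.59. At the 10 internal starts of noncoding Stat3 transcripts the Msl1 ratio lay between 0.861 and 1.45 and the Nsl1 ratio between 0.622 and 1.55. The highest Msl1 window of 1 kb within 50 kb of Stat3 was not in the gene but in the exon of Ptrf 30750 bases upstream, with 87 reads, and it is part of the local level against which Stat3 was measured.

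Socs3, the feedback inhibitor that Stat3 activates, had reads above the local level with Msl1 and not with Nsl1. At its coding start on chromosome 11 (base 117830500) Msl1 had 72 reads, 2.87 times the local level (2.25 to 3.62), and Nsl1 22 reads, 0.917 times (0.575 to 1.39). Within 2 kb the counts were 319 for Msl1 and 92 for Nsl1, 3.18 times (2.84 to 3.55) and 0.959 times (0.773 to 1.18) the local level. Per read of each library this is 4.43 times as many Msl1 as Nsl1 reads (3.50 to 5.65), the highest of the members and above 99.9% of all TSSs. Most of the Msl1 reads lay over the gene itself, 205 of them from 500 to 2000 bases downstream, and the maximum of 85 reads, 6.78 times the local level (5.41 to 8.38), was centred 1100 bases downstream, at a point in an exon. The local level of Socs3 was the highest of the members in both libraries, 25.1 and 24.0 reads per kb, and held the start of Pgs1 17500 bases upstream, where Nsl1 reached 122 reads in 1 kb. Against the genome-wide level in place of the local one, the Nsl1 ratio at the start was 2.26 (1.42 to 3.42) and the Msl1 ratio 9.45 (7.40 to 11.9). The 2 Stat elements printed above lie 334 and 61 bases before the coding start. The nearer of them lies after the RefSeq start, which is 180 bases upstream of the coding one, and at the RefSeq start the ratios were 2.95 for Msl1 and 0.877 for Nsl1. At the annotated starts 265 and 861 bases upstream the Msl1 ratios were 2.67 and 1.28 and the Nsl1 ratios 0.836 and 1.13.

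Myc, on chromosome 15 (base 61816946), had 23 Msl1 reads within 500 bases of its main start, 2.25 times the local level (1.43 to 3.38), and 16 Nsl1 reads, 1.40 times (0.800 to 2.27). Wider windows and later starts gave higher Msl1 values. Within 2 kb there were 128 Msl1 reads, 3.14 times the local level (2.62 to 3.73), and at the annotated starts 173, 231, 1643 and 2031 bases downstream the ratios within 500 bases were 3.34, 3.65, 3.08 and 2.91. The Nsl1 ratio at those 4 starts stayed between 1.40 and 1.65. The Msl1 maximum was 41 reads in the 500 bases centred 650 bases after the main start, 8.04 times the local level (5.77 to 10.9), with its middle in the intron and its beginning in the first exon.

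Mycn, the family member on chromosome 12 (base 12948720), had the highest Msl1 ratio of the members within 2 kb. Its start had 42 Msl1 reads, 3.76 times the local level (2.71 to 5.08), and 17 Nsl1 reads, 1.34 times (0.781 to 2.15). Within 2 kb Msl1 had 183 reads, 4.10 times the local level (3.52 to 4.74), which is above 98.9% of all TSSs, while Nsl1 had 70 reads, 1.38 times (1.08 to 1.74). The highest Msl1 window of 500 bases within 2 kb held 55 reads and was centred 450 bases after the start, 9.85 times the local level (7.42 to 12.8). The highest window of 1 kb within 50 kb held 115 reads and was centred 2000 bases after it, 10.3 times (8.50 to 12.4), at a point in an exon. At the start of Mycn-003, 89 bases downstream, the ratios were 4.32 for Msl1 and 1.26 for Nsl1. At the start of the shorter transcript Mycn-002, 1298 bases downstream, they were 5.04 and 1.49.

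Max, the partner of Myc and Mycn, had the highest Nsl1 ratio of the members within 500 bases, while within 2 kb Lifr had the highest, 1.78 against 1.73 for Max. On chromosome 12 (base 78063235) it had 48 Nsl1 reads, 3.62 times the local level (2.67 to 4.80), and 43 Msl1 reads, 3.08 times (2.23 to 4.15). The ratios did not differ beyond counting error. The maxima lay at different places, in the order that the means over all TSSs also had. Those means were highest from 250 to 500 bases after the start for Msl1 (2.91) and from 0 to 250 for Nsl1 (3.04). The Nsl1 maximum, 31 reads and 4.67 times the local level (3.18 to 6.63), was centred 100 bases before the start, and the Msl1 maximum, 50 reads and 7.16 times (5.31 to 9.44), was centred 500 bases after it, at a point in the intron. Of the E-boxes printed for Max, the nearer spans the start itself and the other lies 278 bases before it, both within the Nsl1 maximum. At the annotated start 223 bases downstream the order of the ratios turned, with 4.09 for Msl1 and 3.24 for Nsl1. It also turned at the main start with the local level from upstream only (4.53 and 3.62), with the genome-wide level (5.65 and 4.94) and within 1000 bases (3.01 and 2.53). The Msl1 level was 9.49 reads per kb upstream of Max and 14.0 on both sides, where it takes in the gene. The Nsl1 level was 13.3 in both.

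At most members Msl1 reads were fewer just before the start than after it, as the profiles show. Msl1 had fewer reads in the 250 bases before the start than from 250 to 500 bases after it at 8 of 9 members, the exception being the annotated start of Il6st. Over all TSSs this was so at 62.1%, and at 81.3% of the TSSs with at least 3 times the local level. At Stat3 the Msl1 counts were 4 before and 49 after, at Max 1 and 32, at Mycn 0 and 27, and at Jak1 2 and 18. For Nsl1 it was so at 5 of 9 members, against 36.1% of all TSSs and 22.9% of those with at least 3 times the local Nsl1 level. At Max Nsl1 had 14 reads before and 6 after the start, and at Stat3 13 and 11. This comparison was chosen after the profiles had been seen.

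**Figure D2:**
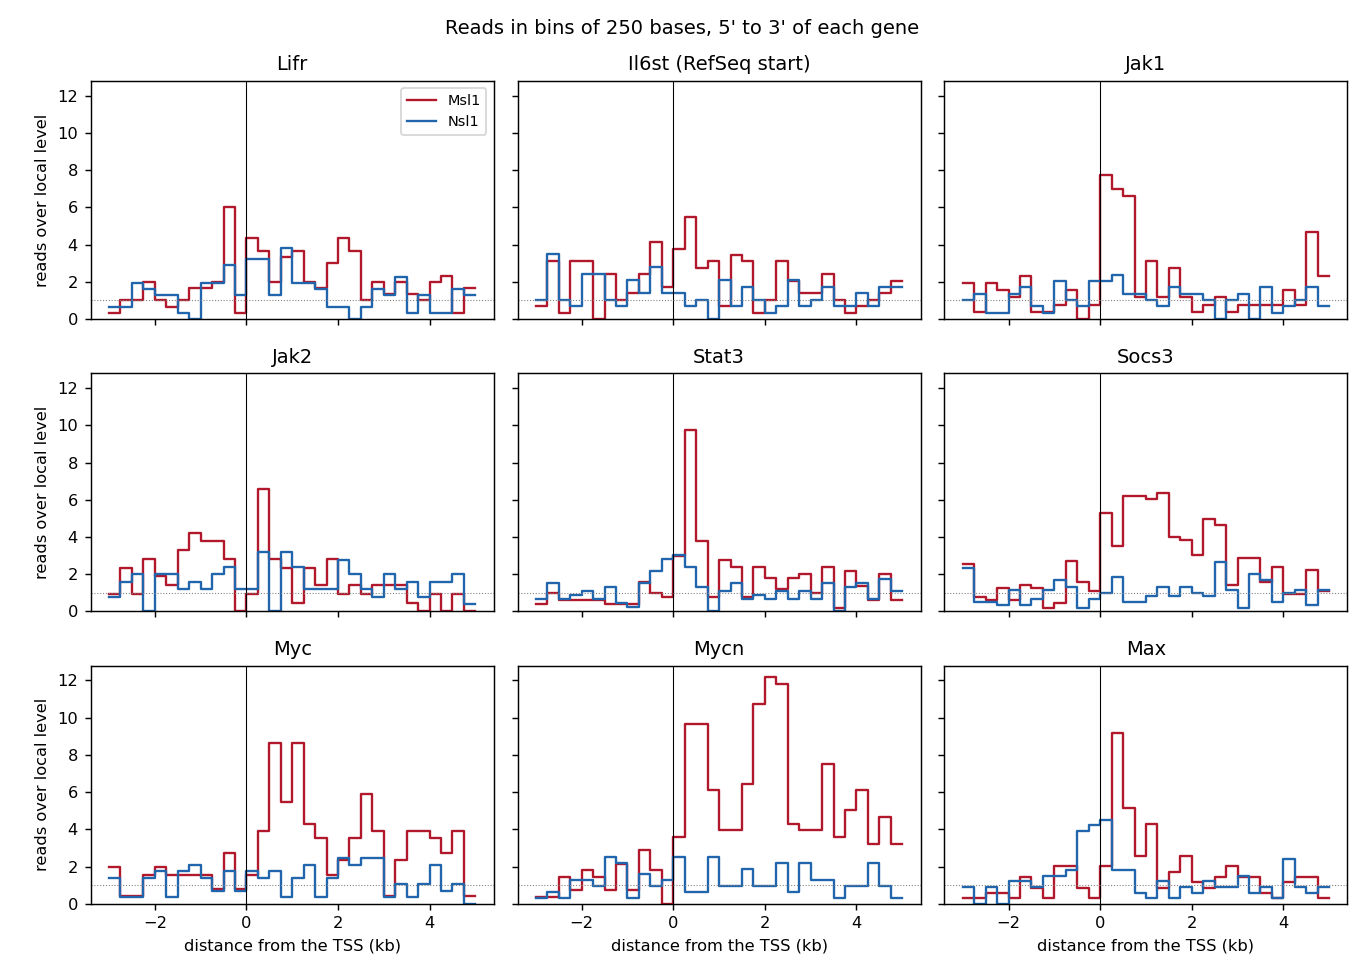
Msl1 (red) and Nsl1 (blue) reads in bins of 250 bases, as multiples of the local level, from -3 to 5 kb around the main TSS of each gene, or the RefSeq start for Il6st, with the direction of transcription to the right. Msl1 is highest after the start at every gene but Lifr and stays up along Socs3, Myc and Mycn, whereas Nsl1 rises at the starts of Max and Stat3 and stays near 1 along Socs3.

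How far the reads reached into the gene was measured by a downstream ratio, in which the density between 500 and 2000 bases after the start is divided by that within 500 bases of it. By their values alone the members fell into 2 ranges for Msl1, though some intervals of one range reached into the other. Socs3, Myc and Mycn had downstream ratios of 1.90 (1.44 to 2.52), 2.38 (1.48 to 3.96) and 1.81 (1.26 to 2.64), so that their reads were denser inside the gene than at the start. The other members lay between 0.594, at Stat3, and 0.930, at Max, with intervals that reached 1.66 at Il6st, 1.46 at Jak2 and 1.41 at Max. A Msl1 downstream ratio above 1 was thus found at 3 of 9 members, against 28.6% of all TSSs with at least 10 reads. Genes as short as Socs3, Myc and Mycn, up to 10 kb, had it in 31.3%. For Nsl1 it was found at 0 of the 8 members with at least 10 reads at the main start, against 17% of all TSSs. Socs3 (0.970, 0.546 to 1.75) and Mycn (0.980, 0.509 to 1.93) lay just under 1, and with the RefSeq starts or the 5′ ends of reads both lay above it, 2 of 8 members. The annotated start of Il6st, with 8 Nsl1 reads, is under that minimum and gave 1.50 (0.621 to 3.99). The lowest Nsl1 value was 0.236 at Max (0.127 to 0.418), followed by 0.347 at Stat3 (0.205 to 0.574). The median over the members was 0.788 for Msl1, beside 0.762 over all TSSs, and 0.767 for Nsl1, or 0.737 without Il6st, beside 0.590.

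Socs3, Myc and Mycn also stood apart in the sequence of that downstream window. It holds 98 CpGs at Socs3, 94 at Myc and 72 at Mycn, and from 19 to 35 at the other members, against a median of 21 over all TSSs. A cutoff of 70 lies just under the number at Mycn. Of the TSSs with at least 70 CpGs there, 64.8% had a Msl1 downstream ratio above 1, and of those with fewer 25.3%. For Nsl1 the shares were 36.5% and 15.5%. Among the TSSs with at least 70 CpGs, the Msl1 downstream ratio was above that of 90.1% for Myc, 81.4% for Socs3 and 78.4% for Mycn. The part of the CpGs in the Msl1 reads of Socs3, Myc and Mycn was not tested. At least 3 times the local Msl1 level within 2 kb was likewise reached by 3 of 9 members, the same Socs3, Myc and Mycn, against 6.35% of all TSSs, 5.54% of genes up to 10 kb and 25.2% of the TSSs with at least 70 CpGs downstream. No other member is in that last class. In it the Msl1 ratio within 2 kb was above that of 94.6% for Mycn, 80.3% for Socs3 and 79.0% for Myc. With Nsl1 0 of 9 members reached 3 times the local level within 2 kb, where 3.96% of all TSSs, 2.48% of genes up to 10 kb and 1.53% of the TSSs with at least 70 CpGs did.

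**Figure D3:**
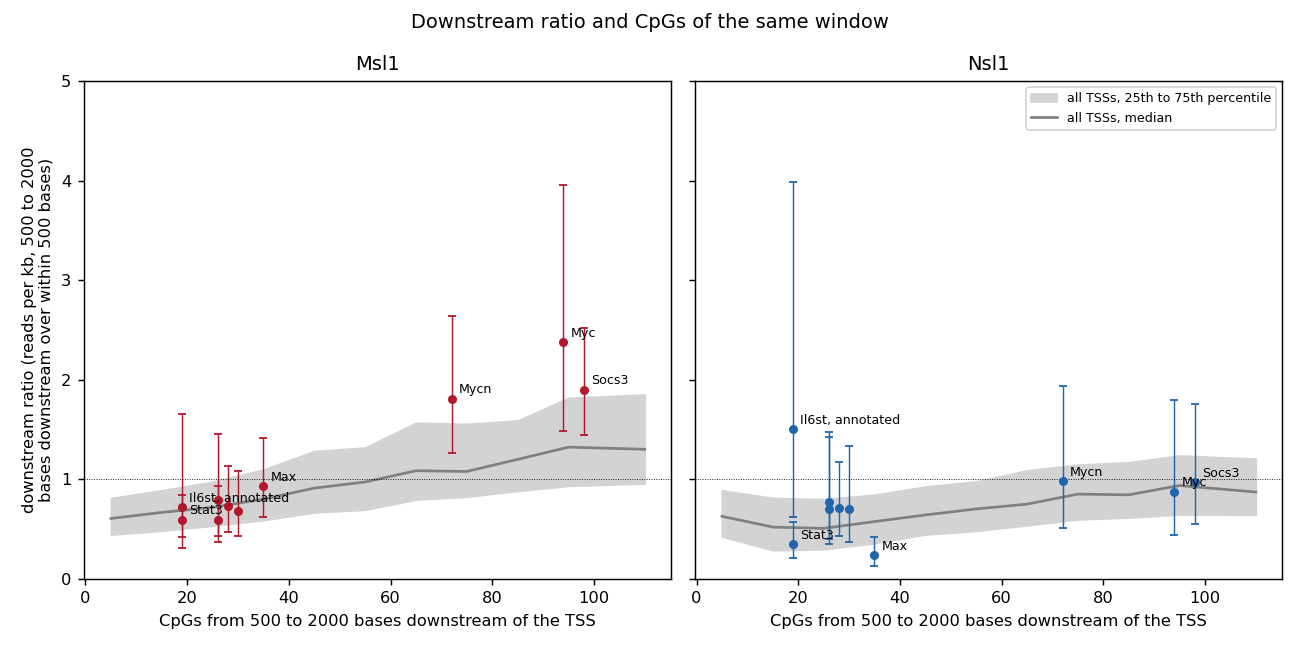
Downstream ratio of each gene (points with 95% intervals) against the number of CpGs from 500 to 2000 bases after the TSS, for Msl1 (left) and Nsl1 (right). The line and band are the median and the middle 50% of all TSSs in bins of CpG number. Myc, Socs3 and Mycn lie at high CpG numbers and have Msl1 ratios of 2.38, 1.90 and 1.81, where the medians of all TSSs are also above 1.

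Over the rest of the gene the members differed as well. In genes over 10 kb the reads per kb from 2 kb after the start to the end were divided by the level 5 to 50 kb upstream. For Max the Msl1 value was 2.25 (2.05 to 2.46), above 97.6% of the genes over 10 kb, whose median is 1.09, and the Nsl1 value was 0.918 (0.814 to 1.03). For Lifr it was 1.38 (1.29 to 1.47) and for Il6st from the RefSeq start 1.34 (1.23 to 1.46). Jak2 and Stat3 had 1.19 each, and Jak1, the longest member with 112916 bases, had 1.03 (0.975 to 1.09). Past 2 kb the Msl1 reads of Jak1 were thus as dense as those upstream of the gene, whereas those of Max were denser. Of the short genes taken whole, Mycn had 6.87 times the upstream Msl1 level (6.18 to 7.61), Myc 4.34 times (3.75 to 5.01) and Socs3 3.86 times (3.47 to 4.28), where the median of genes of 2 to 10 kb was 1.34. The Nsl1 values of the same 3 genes were 1.27, 1.43 and 1.09.

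**Figure D4:**
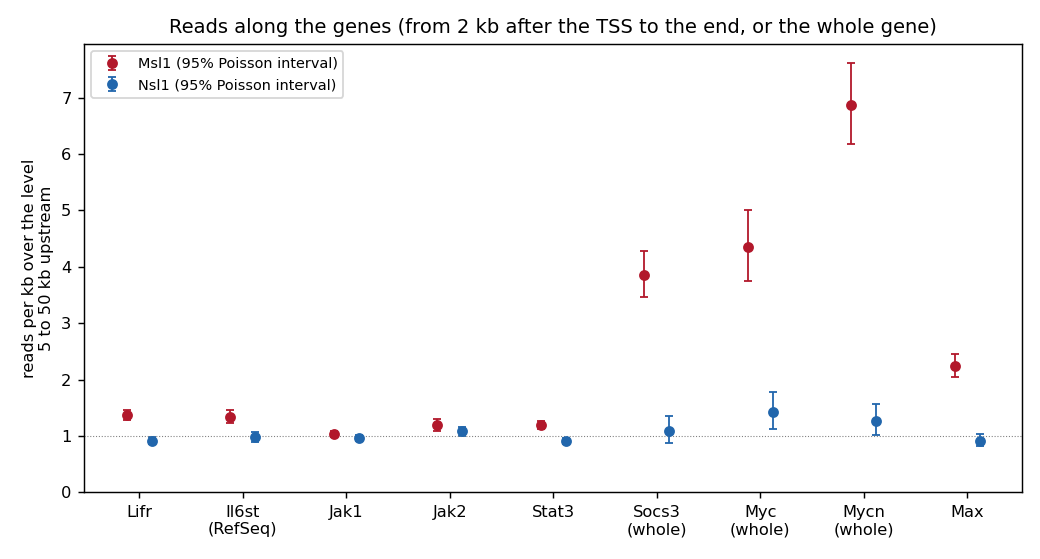
Reads per kb along each gene over the level 5 to 50 kb upstream, from 2 kb after the TSS to the end, or over the whole gene for Socs3, Myc and Mycn, with 95% Poisson intervals for Msl1 (red) and Nsl1 (blue). The Msl1 values of Mycn, Myc, Socs3 and Max lie between 2.25 and 6.87, while all Nsl1 values lie between 0.909 and 1.43.

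Set against each other per read of each library within 2 kb, Msl1 reads exceeded Nsl1 reads at 9 of 9 members, from 1.19 times at the annotated start of Il6st to 4.43 times at Socs3, and at 64.5% of the 19971 TSSs with enough reads. The interval lay above the median of all TSSs, 1.16, at 8 of 9 members and at 22.3% of all these TSSs. Within 500 bases the interval lay above the median there, 1.02, at 5 of 9 members. In that window the ratio was 1.14 for Max (0.740 to 1.76), 1.84 for Myc (0.929 to 3.72) and 1.40 for Jak2 (0.732 to 2.71), and 2.08 for the annotated start of Il6st (0.797 to 5.78). Within 2 kb the median over the members was 1.96. After Socs3 the order within 2 kb was Mycn with 3.34 (2.52 to 4.46), Myc with 2.72 (1.99 to 3.77), Stat3 with 2.08 (1.61 to 2.71) and Jak1 with 1.96 (1.41 to 2.72). Neighbours in this order had overlapping intervals. This ratio rose with CpGs over all TSSs. Its median was 1.50 for the TSSs with at least 60 CpGs within 500 bases and 1.89 for those with at least 70 CpGs downstream. Within the latter class Socs3 lay above 99.2%, Mycn above 95.4% and Myc above 86.0%. Of the other members in the former class, Stat3 lay above 82.2%, Jak1 above 77.1%, Max above 67.5%, Lifr above 59.8% and Jak2 above 59.6%. The intervals of Jak1 (from 1.41), Max (from 1.34), Lifr (from 1.23) and Jak2 (from 1.18) reached below the median of the former class. Library kit, read length and antibody differed together between the libraries and cannot be told apart here.

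The other genes of the pathway were read in the same way, in 54 genes of 5 lists. At least 3 times the local level was reached by 13 of 54 in the Msl1 library and by 9 of 54 in the Nsl1 library, which are 24.1% and 16.7%, beside 23.2% and 24.1% of all TSSs. Of the genes that Stat3 is known to activate in mESCs and other cells, 6 of 9 were at 3 times the local level with Msl1 and 0 of 9 with Nsl1, against 23.2% and 24.1% of all TSSs. Their CpGs were not counted, and of the TSSs with at least 60 CpGs within 500 bases 48.7% reached that level with Msl1 and 39.7% with Nsl1. This list was chosen with earlier results of these data known. The genes on it had a median ratio of 3.76 for Msl1 and 1.49 for Nsl1, beside 1.84 and 1.71 over all TSSs. Their median of Msl1 over Nsl1 reads within 2 kb was 3.01, beside 1.16 over all TSSs and 1.89 for those with at least 70 CpGs downstream. They include the pluripotency factors Klf5, with 74 Msl1 reads and a ratio of 5.91 (4.64 to 7.43), and Klf4, with 33 reads and 4.85 (3.34 to 6.80). The kinase gene Pim1 had 69 Msl1 reads, 5.10 times the local level (3.97 to 6.46).

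Of the feedback inhibitors and phosphatases 3 of 15 were at that level with Msl1 and 4 of 15 with Nsl1, against 23.2% and 24.1% of all TSSs. Ptpn11 and Socs4 were at it in both libraries. Socs2, like Socs3 an inhibitor induced by cytokines, had a Msl1 ratio of 5.26 (4.05 to 6.71) and a Nsl1 ratio of 1.15 (0.645 to 1.90). Ptpn11, the phosphatase Shp2, and Socs4 had the 2 highest Nsl1 ratios of the lists, 7.20 (5.78 to 8.86) and 6.76 (5.31 to 8.49), with Msl1 ratios of 3.40 and 3.29. Of the other Jak kinases and Stat factors, 2 of 8 reached 3 times the local level with Msl1 and 1 of 8 with Nsl1, against 23.2% and 24.1% of all TSSs, and the median ratios of this list were 1.33 and 1.57.

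In the Myc and Max network 1 of 11 genes reached 3 times the local level with Msl1 and 3 of 11 with Nsl1, against 23.2% and 24.1% of all TSSs. These 3 were Zbtb17, which encodes the Myc partner Miz1, with 5.63 (4.45 to 7.02), Mlx, a partner of the glucose-sensing Mlx-interacting proteins, with 4.67 (3.82 to 5.65), and Mga, a Max partner, with 4.60 (3.42 to 6.05). Their Msl1 ratios were 1.51, 2.42 and 2.44. Of the LIF family cytokines and receptors 1 of 11 was at that level in each library. The lowest Msl1 ratios of the 5 lists were in this one, 0.207 at Cntfr and 0.209 at Il11ra1. These 2 genes are neighbours on chromosome 4, with starts so close (bases 41644121 and 41647021) that they share most of the local level, so the values are not independent. The lowest Nsl1 ratios were 0.298 at Il11ra1 and 0.533 at Stat4, of the Jak and Stat list. Il11ra1 has near-identical copies in the mouse genome, and reads that match several places were not kept, so its low counts are uncertain. Cntfr was low within 2 kb in both libraries, at 0.207 with Msl1 and 0.361 with Nsl1, and its low counts are uncertain as well. How much of the sequence at either gene can hold unique reads was not measured.

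**Figure D5:**
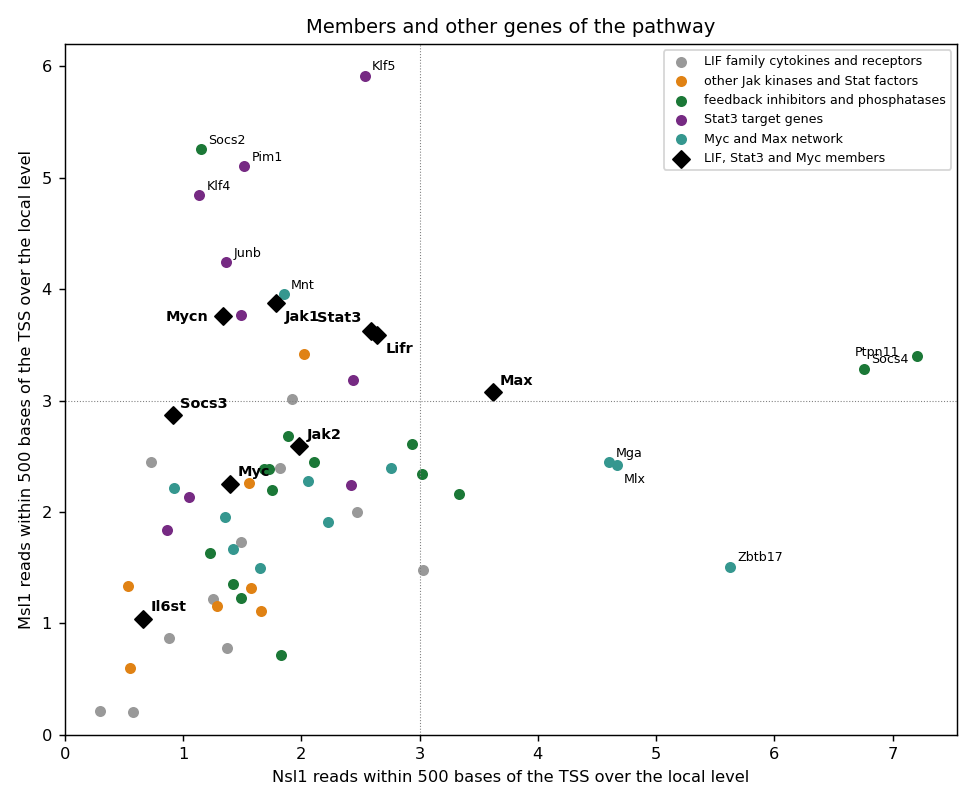
Msl1 against Nsl1 reads within 500 bases of the main TSS, each as a multiple of the local level, for the 9 members (black diamonds) and 53 of the other genes in 5 lists (coloured points). Dotted lines mark 3 times the local level. Of the 9 Stat3 target genes 6 lie above the Msl1 line and left of the Nsl1 line, with Msl1 up to 5.91, and the others below both, while Ptpn11, Socs4, Zbtb17, Mlx and Mga lie at the right, with Nsl1 between 4.60 and 7.20.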

How the data were processed

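ChIP DNA of Msl1 and Nsl1 from wild type mESCs was sequenced, 1 library per antibody. Per the labels and the methods, the authors aligned single reads to mm9 with Bowtie 0.12.7 after CASAVA 1.8.2 and used unique reads, and deposited 1 line per read with its coordinates, strand and a score. The deposited score is 255 on every line and was not used, nor was the Input of another study. Libraries were made with NEXTFlex for Msl1 and NEBNext for Nsl1.

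Counting was done in Python 3.11.15 using scipy 1.17.1, pandas 2.3.3 and numpy 2.4.6, and plots were drawn with matplotlib 3.10.9. Repeats of a position and strand (18.3% of nuclear Msl1 and 4.56% of nuclear Nsl1 reads) were counted once, and mitochondrial reads were left out. Reads were moved 106 bases for Msl1 and 66 for Nsl1, from cross-correlation on chromosomes 16, 17 and 19. The main TSS of a gene is the start shared by most of its protein-coding transcripts in GENCODE vM1, the most upstream in a tie. TSSs with under 45 reads in the local level in either library were left out, downstream ratios needed 10 reads at the start, and ratios between libraries 50 reads in all. Intervals are exact Poisson, or Clopper-Pearson for ratios of counts, and take the local level as fixed. For the highest windows they also ignore that the window was picked for its reads. The counting was tested on simulated reads. Of 32851 RefSeq promoters (GRCm38.p6), 30463 were placed on mm9 by exact match.

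All members were described at every annotated TSS. Of the other pathway genes, the 5 with the highest ratio in each library and the 2 with the lowest were named, except 1 that is not reported here. The members and lists were chosen with earlier results of these data known. A single library per antibody allows no test, so none was made.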

Additional observations from a re-analysis of the deposited data

How the results depend on the processing

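No paired analysis was possible because each antibody had 1 library. Of 261 values of single genes under the other settings, 241 stayed inside the 95% interval of the value reported, and no ratio of at least 3 fell below 1. In all 11 of 261 values moved to the other side of 1, and 2 of these lay outside their interval, the Nsl1 ratio of Socs3 with the genome-wide level (2.26) and that of Il6st at the RefSeq start (1.57). The 20 outside include 8 of 18 under the genome-wide level. With that level 35 of 54 pathway genes reached the threshold with Msl1 and 20 with Nsl1. Of the members 7 did with Msl1 and 3 with Nsl1, and the median Msl1 ratio of the members was 5.52. At a threshold of 2 the counts were 8 and 3 members and 31 and 19 pathway genes for Msl1 and Nsl1. The shares of all TSSs at that threshold were 45.6% and 41.6%. Under the other settings here the share of all TSSs was not counted. With a window of 1000 bases on each side 0 members and 5 pathway genes were called with Nsl1, and the ratio of Max was 2.53. Keeping all reads, leaving them at their 5′ ends or taking the most upstream TSS changed no count of members at 3 times the local level by over 1.5 times. The most upstream TSS of Socs3, that of a noncoding transcript, lowered its Msl1 ratio to 1.28. With the 5′ ends 2 of 8 members had a Nsl1 downstream ratio above 1, against 0 in the main setting. The RefSeq starts were added after the data had been seen and gave 6 members with Msl1. The cause of these shifts was not tested. The main starts of the members hold 8 to 73 reads within 500 bases, and this number limits the precision of each ratio.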
